A study of Mus musculus with 6 samples.

Results

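The 8 ETS transcription factors that are best known as targets or effectors of ERK signaling were followed in primary mouse cardiomyocytes with and without expression of RIT1 M90I. They are Etv1, Etv4 and Etv5 (the PEA3 group), Ets1 and Ets2, and the ternary complex factors Elk1, Elk3 and Elk4. Members were listed by name, with earlier results of these data known, and all 8 were found among the 54532 genes measured. RNA-seq had been done on 6 cultures of heart cells from 1- to 3-day-old mice whose Rit1 locus carries a Cre-inducible M90I allele. Adenovirus was added to all of them 3 days after isolation, carrying GFP in 3 cultures (AdGFP, labelled Rit1 +/+) and GFP-Cre in the other 3 (AdCre, labelled Rit1 M90I/+), and RNA was taken 6 days later. RIT1 is a small GTPase of the RAS family, and setting AdCre against AdGFP asks which transcripts respond to its variant. Both groups received GFP but only AdCre received Cre, so Cre itself and M90I cannot be told apart here. Each well was seeded with the cells of about 1 heart that had not stuck to plastic, and no source used here limits infection to the myocytes among them.

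ETS factors share a DNA-binding domain that recognizes GGAA sites. ERK phosphorylates Ets1, Ets2 and the Elk factors and so raises their activity, and the Elk factors act with SRF on immediate-early promoters such as those of Fos and Egr1. The PEA3 factors are themselves transcribed in response to ERK, in part because ERK relieves repression of their genes by Capicua (Cic). Etv1 is known in the heart for its role in atrial and fast-conduction myocytes, and Ets1 and Elk3 are well known in the vasculature. Etv4 was singled out by the study from these same samples, so its direction is not independent evidence.

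Depth behind the values was worked back from FPKM (reads scaled to exon length and library size), and came to 25.28 to 32.43 M reads (M, megareads) per sample. Markers of 6 cell types were present, so the cultures were mixed, and no marker was at 0 in every sample. The 8 cardiomyocyte markers summed to 4608 to 7874 FPKM in AdGFP and 2412 to 4066 FPKM in AdCre, the 10 fibroblast markers to 2710 to 4781 FPKM and 2423 to 3483 FPKM. Rit1 itself lay between 7.66 and 9.01 FPKM in AdGFP and between 8.90 and 9.58 FPKM in AdCre, values that do not separate the variant from the wild-type transcript.

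Promoter windows from RefSeq (GRCm38.p6, 250 bases before to 50 bases after each start) were on hand for 6 of the 8 factors, with 10 windows among them. Of the 3 factors whose AdGFP and AdCre values did not overlap (Etv4, Etv5 and Elk3), the windows of Etv5 and Elk3 are shown to set a promoter with Capicua-type letters beside one without. Capitals mark TGAATG, the core of the Capicua site, and GGAAGT, an ETS site, on either strand. The Etv5 stretch is chr16:22438369-22438618 and the Elk3 stretch chr10:93311160-93311409, both read along the minus strand up to the start. Neither overlaps an exon of its own gene in GENCODE M21, and exons of other genes were not checked.
Etv5, second start: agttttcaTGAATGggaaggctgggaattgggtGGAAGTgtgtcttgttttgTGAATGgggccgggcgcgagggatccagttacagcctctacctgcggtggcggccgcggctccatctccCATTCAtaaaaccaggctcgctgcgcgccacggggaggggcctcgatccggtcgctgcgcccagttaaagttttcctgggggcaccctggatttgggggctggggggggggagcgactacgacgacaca
Elk3: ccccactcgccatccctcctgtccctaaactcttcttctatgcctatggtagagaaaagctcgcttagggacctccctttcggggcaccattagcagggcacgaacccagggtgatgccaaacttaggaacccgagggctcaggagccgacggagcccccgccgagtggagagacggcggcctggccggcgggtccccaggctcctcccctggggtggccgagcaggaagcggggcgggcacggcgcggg
The Etv5 stretch held 3 matches to TGAATG, at -242 and -198 on the strand of the gene and at -129 on the other, counted from the start, and 1 to GGAAGT at -217. TGAATG occurs at least once in 12.7% of all 32851 RefSeq promoter windows and at least 3 times in 0.17% of them. The first Etv5 window, 1 of 2, held no match to it, nor did any window of Etv1, Ets2, Elk1, Elk3 or Elk4. GGAAGT, found in 23.8% of all windows, was present in 1 of 2 windows of Etv1, in 1 of 2 of Etv5 and in all 3 of Elk4. CGGAAG, found in 16.9% of all windows and able to share bases with GGAAGT, was present in 2 of 3 windows of Elk4, 1 of them overlapping a GGAAGT match. The AP-1 letters TGANTCA, the cAMP response element letters TGACGT and the CArG box were searched on both strands as well and matched no window of the 6 factors, against 7.81%, 7.51% and 1.63% of all windows. These are letter matches, and gene-level FPKM does not tell which start was used.

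Per length of exon, the factors spanned a wide range of transcript levels. Mean FPKM over the 6 samples was 14.3 for Ets2, 14.1 for Etv5, 13.4 for Elk3, 10.5 for Ets1, 7.47 for Etv4, 5.52 for Elk4, 4.96 for Elk1 and 1.14 for Etv1. The first 3 could not be ordered, since Ets2 was above Etv5 in 4 of 6 samples and Etv5 above Elk3 in 4 of 6. Elk3 was above Ets1 in 6 of 6 and Elk1 above Etv1 in 6 of 6. Etv4 changed place with the group: among the 8 factors it ranked 5, 7 and 7 in the AdGFP samples and 2, 5 and 5 in the AdCre samples. Ets2 ranked 1 in all 3 AdGFP samples and in AdCre sample 2, and 4 in AdCre samples 1 and 3.

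Without regard to replicate number, 0 of the 8 factors passed an adjusted p of 0.05 in limma, where 0.00725% of the 13794 genes tested did (1 gene). At an unadjusted p of 0.05 in limma, 3 factors passed (Etv4, Etv5 and Elk3), against 10.2% of all genes. The same 3 had no overlap between the groups, all higher in AdCre, against 15.4% of all genes without overlap in either direction (7.36% higher and 8.02% lower). Samples with the same replicate number in the 2 groups deviated together across genes, and with that number fitted as a block 2 factors passed (Etv4 and Elk3, both higher), against 6.15% of all genes (2.64% higher and 3.51% lower). In all 3 pairs of same-numbered samples, Etv4, Etv5, Ets1, Elk3 and Elk4 were higher and Ets2 lower in AdCre. Of all genes tested, 23.9% were higher and 24.5% lower in all 3 pairs. The median log2 difference of the 8 was 0.25, while that of all genes tested was -0.00. With 3 samples against 3, the exact two-sided permutation test cannot give less than 0.1.

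**Figure D1:**
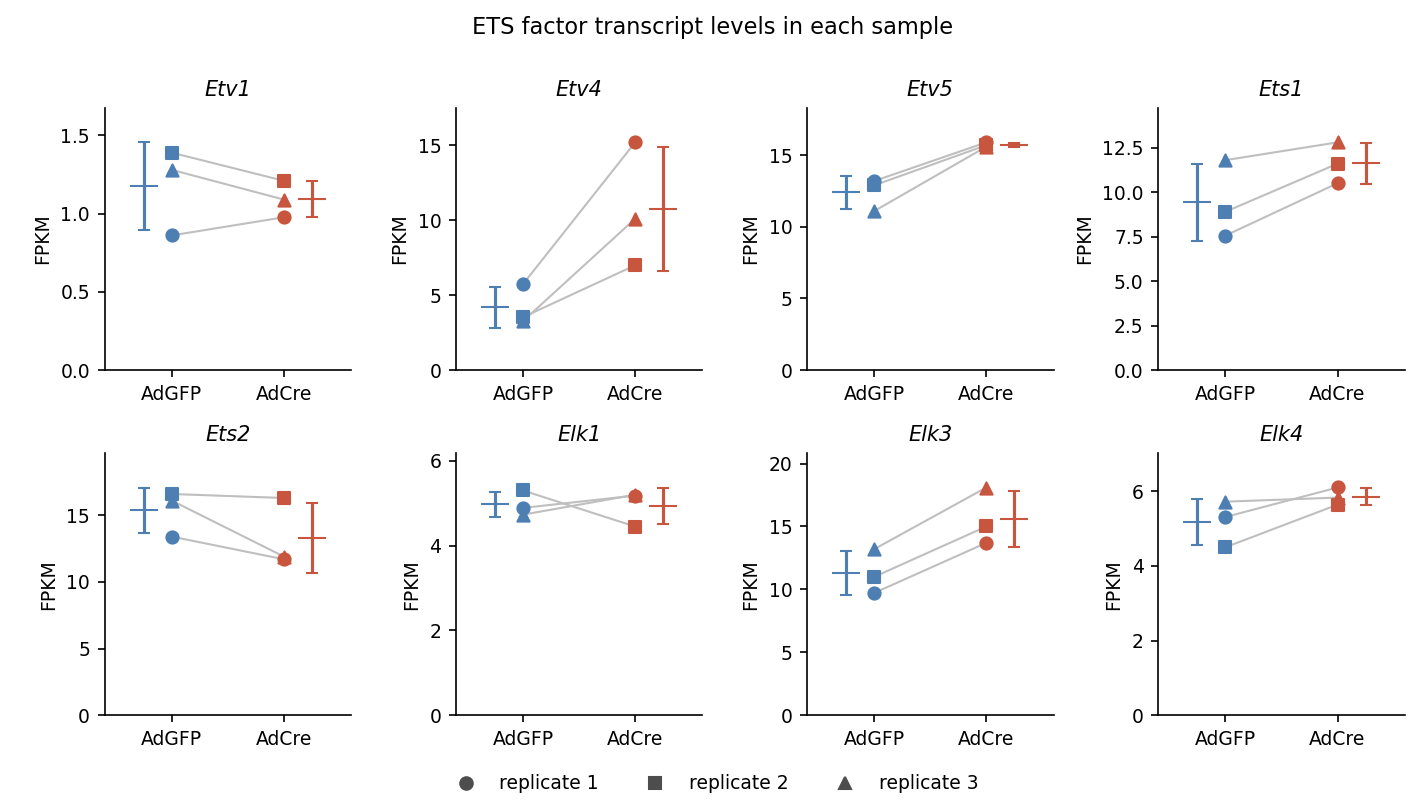
FPKM of each of the 8 ETS factors (vertical axes, each from 0) in the 3 AdGFP samples (blue) and the 3 AdCre samples (red), with lines joining samples of the same replicate number and, beside them, the group mean with its SD. Etv4, Etv5 and Elk3 do not overlap between the groups, and Etv4 runs from 3.27 to 5.74 FPKM in AdGFP and from 6.99 to 15.2 FPKM in AdCre.

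Etv4, a PEA3 activator encoded (ENSMUSG00000017724) on the minus strand at chr11:101769742-101785371 (GRCm38), was measured at 5.74, 3.53 and 3.27 FPKM in AdGFP samples 1 to 3 and at 15.2, 6.99 and 10.1 FPKM in AdCre samples 1 to 3. The groups did not overlap, and the spread within AdCre was wide. Means were 4.18 ± 1.36 FPKM in AdGFP and 10.8 ± 4.18 FPKM in AdCre (SD, n = 3 each), a ratio of 2.58. The log2 difference was 1.32 with SE 0.32 (limma, Benjamini-Hochberg adjusted p = 0.287), and with the replicate block it was 1.32 with SE 0.14 (limma adjusted p = 0.0145). Pair by pair the difference was 1.40, 0.96 and 1.59, higher in 3 of 3 pairs. The exact permutation p was 0.1. Without pair 3 the blocked difference was 1.18 and its limma adjusted p was 0.0798, in a fit of 2 pairs that called 1 gene of all 13794. These values rested on 250 to 1516 reads per sample, for a counting error of at most 6.32% of a value.

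Etv5, the most abundant of the PEA3 group and like Etv4 an activator, lies (ENSMUSG00000013089) at chr16:22381309-22439719 on the minus strand. It was measured at 13.2, 12.9 and 11.1 FPKM in AdGFP and at 15.9, 15.7 and 15.6 FPKM in AdCre. The AdCre samples were nearly equal to each other and all above AdGFP. Counting error alone was up to 2.99% of an Etv5 value, so the AdCre SD of 0.114 FPKM understates the error. The ratio of means was 1.27 (12.4 ± 1.16 FPKM against 15.7 ± 0.114 FPKM, SD, n = 3 each), and the log2 difference of 0.35 had a 95% interval of 0.08 to 0.62. It did not pass in limma without the block (adjusted p = 0.374) or with it (adjusted p = 0.0753). Of the 50-base words in Etv5 transcripts, 24.5% also occur in its processed pseudogene Gm4798, which was listed at 0.0368 to 0.114 FPKM over the 6 samples.

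Etv1 (ENSMUSG00000004151), the remaining PEA3 factor, at chr12:38779380-38870484 on the plus strand, was the least abundant, at 0.861, 1.39 and 1.28 FPKM in AdGFP and 0.977, 1.21 and 1.09 FPKM in AdCre. The groups overlapped. Its log2 difference of -0.08 had a 95% interval of -0.66 to 0.51, with pair differences of 0.16, -0.18 and -0.21 (limma adjusted p = 0.963). Unlike Etv4 and Etv5 it was not higher in all pairs, and a change of either sign within that interval cannot be told from none at this spread and number of samples. Of the 50-base words in its transcripts, 9.05% also occur in other genes. Gm5454 and Olfr2, the first 2 of these when ordered by shared words, were listed at 0.0838 FPKM or less in every sample. Among 10 genes of the fast-conduction and atrial program, in which Etv1 is known to act, 8 were lower by sign, with a median log2 difference of -0.35 that was -0.59 without AdCre sample 1. Of the 10, 0 passed without the block, 3 had an unadjusted p under 0.05, and 3 fell with the block (Nkx2-5, Sln and Nppa). The 8 general cardiomyocyte markers moved with them, all lower by sign with a median of -0.96 and 6 falling with the block, and their part in these values was not tested.

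Ets1 (ENSMUSG00000032035), an activator of endothelial and lymphoid genes at chr9:32636221-32757820 on the plus strand, was measured at 7.56, 8.90 and 11.8 FPKM in AdGFP and 10.5, 11.6 and 12.8 FPKM in AdCre. AdGFP sample 3 was above 2 of the AdCre samples, so the groups overlapped, although each AdCre sample was above its AdGFP partner (0.47, 0.38 and 0.12 on the log2 scale). The log2 difference was 0.32 with a 95% interval of -0.11 to 0.76 (limma adjusted p = 0.625, and 0.119 with the block). Ets2 (ENSMUSG00000022895), its close relative, at chr16:95702075-95721051 on the plus strand, stood at 13.4, 16.6 and 16.1 FPKM in AdGFP and 11.7, 16.3 and 11.9 FPKM in AdCre. Its sign was the opposite, lower in 3 of 3 pairs, with overlap. The log2 difference of -0.21 had a 95% interval of -0.61 to 0.18 (limma adjusted p = 0.756, and 0.258 with the block).

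Elk3 (ENSMUSG00000008398), the ternary complex factor that represses its targets until ERK phosphorylates it, lies at chr10:93247414-93311135 on the minus strand. It was measured at 9.72, 11.0 and 13.2 FPKM in AdGFP and 13.7, 15.0 and 18.1 FPKM in AdCre. The lowest AdCre sample was just above the highest AdGFP sample, and both groups had the same order of replicates. The means were 11.3 ± 1.75 FPKM and 15.6 ± 2.25 FPKM (SD, n = 3 each), a ratio of 1.38. Without the block the log2 difference was 0.46 with SE 0.16 (limma adjusted p = 0.416), and with it 0.46 with SE 0.08 (limma adjusted p = 0.0312). Pair differences were 0.49, 0.45 and 0.45, the most even of the 8 factors. Without pair 1, 2 or 3 the blocked difference was 0.45, 0.47 or 0.47 and its limma adjusted p was 0.0546, 0.124 or 0.136, in fits of 2 pairs that called 772, 149 and 1 of all genes, against 848 with 3 pairs. Antisense to Elk3 exons, 6.95% of the length is shared with Cdk17, which was at 9.27 to 10.5 FPKM in AdGFP and 7.69 to 9.28 FPKM in AdCre, and the use of strand in counting is not given in the sources used here.

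Elk1 and Elk4 activate with SRF, Elk1 (ENSMUSG00000009406) from chrX:20933395-20950608 on the minus strand and Elk4 (ENSMUSG00000026436) from chr1:132007607-132032612 on the plus strand. Elk1 stood at 4.89, 5.30 and 4.73 FPKM in AdGFP and 5.18, 4.45 and 5.20 FPKM in AdCre. Its groups overlapped, and its log2 difference of -0.01 had a 95% interval of -0.31 to 0.29 (limma adjusted p = 0.991). Elk4 stood at 5.31, 4.50 and 5.72 FPKM in AdGFP and 6.10, 5.64 and 5.83 FPKM in AdCre. AdCre was higher in 3 of 3 pairs but AdGFP sample 3 was above the lowest AdCre sample, and the log2 difference of 0.18 had a 95% interval of -0.13 to 0.49 (limma adjusted p = 0.722, and 0.328 with the block).

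**Figure D2:**
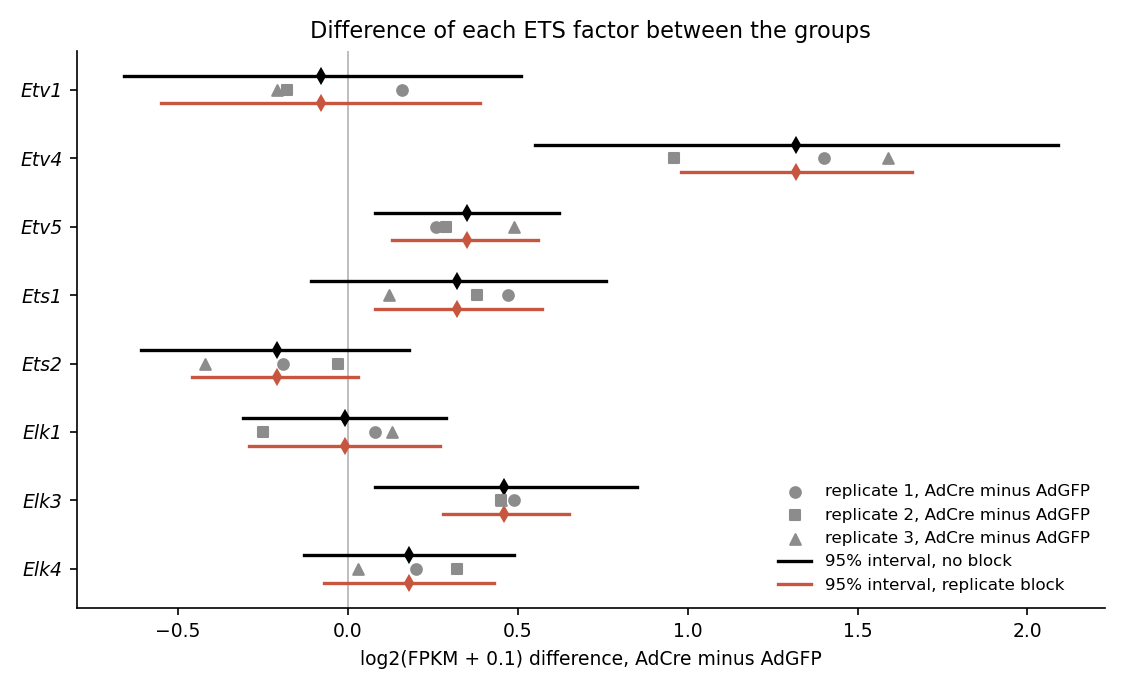
Log2 difference of AdCre minus AdGFP for each ETS factor (horizontal axis, log2(FPKM + 0.1)), with grey points for the 3 replicate pairs and diamonds with 95% intervals from the limma fit without the replicate block (black) and with it (red). The Etv4 interval without the block runs from 0.55 to 2.09, and the Elk3 pair differences lie within 0.45 to 0.49.

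Summed over the 8 factors, FPKM was 60.7, 64.1 and 67.1 in AdGFP and 79.3, 77.1 and 80.6 in AdCre, with no overlap. This total holds Etv4, Etv5 and Elk3, which did not overlap on their own, so it is not a separate result. The means of Etv1, Ets2 and Elk1 were lower in AdCre. The PEA3 group summed to 19.8, 17.8 and 15.6 FPKM in AdGFP and 32.1, 23.9 and 26.8 FPKM in AdCre, and the ternary complex factors to 19.9, 20.8 and 23.6 FPKM and 25.0, 25.1 and 29.1 FPKM. The sums of Ets1 and Ets2 overlapped between the groups. Within the PEA3 group Etv4 made up 28.9, 19.8 and 20.9% of the FPKM in AdGFP and 47.5, 29.2 and 37.6% in AdCre. The share of Etv4 was larger in each AdCre sample than in any AdGFP sample, but only narrowly, at 29.2% in AdCre sample 2 against 28.9% in AdGFP sample 1. That margin is within the counting error of Etv4, up to 6.32% of a value.

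**Figure D3:**
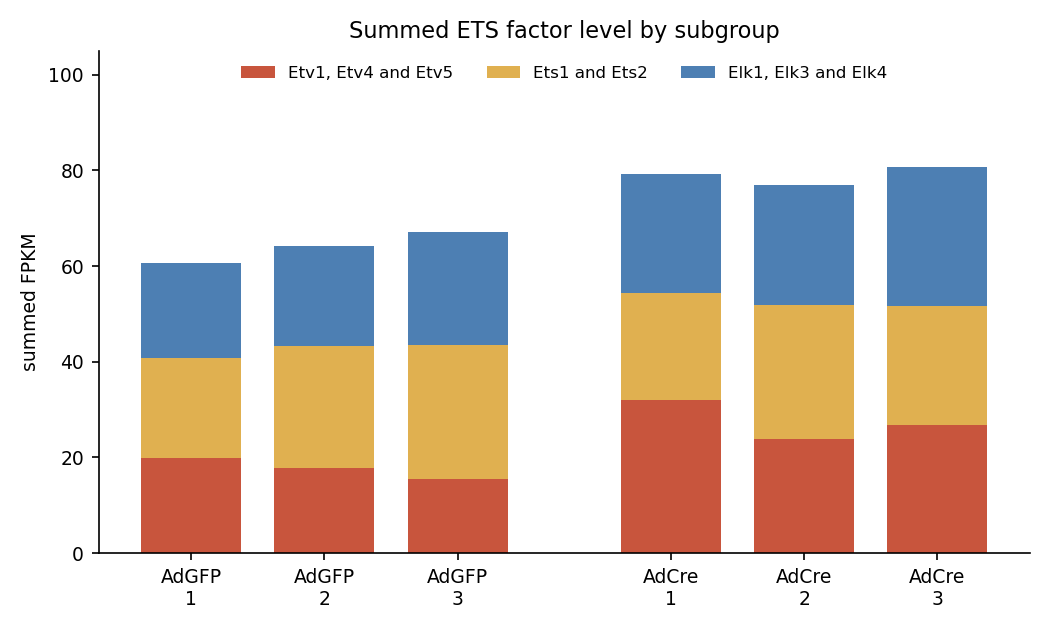
Summed FPKM of Etv1, Etv4 and Etv5 (red), Ets1 and Ets2 (yellow) and Elk1, Elk3 and Elk4 (blue) in each of the 6 samples, stacked from 0. The totals run from 60.7 to 67.1 FPKM in AdGFP and from 77.1 to 80.6 FPKM in AdCre.

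Because these are mixed cultures, the marker sums of other cell types were set beside the factors. In bulk RNA, fewer cells of a type and less RNA per cell cannot be told apart. The 11 endothelial markers summed to 96.5, 116 and 148 FPKM in AdGFP and 140, 157 and 207 FPKM in AdCre. Of the 11, 9 were higher and 2 lower by sign (Cldn5 and Vwf), with a median log2 difference of 0.35 that ranged from 0.14 without AdCre sample 3 and 0.16 without AdGFP sample 1 to 0.53 without AdCre sample 1 and 0.57 without AdGFP sample 3. Of these markers 0 passed without the block, 4 rose with it (Cdh5, Egfl7, Eng and Flt1), and none was at 0. Eng alone made up 46.0 to 50.6% of the sum. Across the 6 samples Elk3 kept near a fixed share of that sum, 8.90 to 10.1% in AdGFP and 8.71 to 9.76% in AdCre, and its pair differences relative to the sum were -0.05, 0.01 and -0.03 on the log2 scale. This was the closest match among 48 combinations of 8 factors with 6 marker lists, and it was picked out after the values were seen. Without Eng in the sum, the Elk3 pair differences were 0.04, 0.03 and 0.05. Ets1 stood at 7.68 to 7.98% of the sum in AdGFP and 6.18 to 7.51% in AdCre. Etv4 relative to the same sum had pair differences of 0.87, 0.55 and 1.14, with groups that overlapped at 2.21 to 5.94% and 4.46 to 10.9%. The Etv4 groups also overlapped relative to the macrophage sum, but not relative to the cardiomyocyte, fibroblast, mural or epicardial sums. Relative to the cardiomyocyte sum, which was lower in each AdCre sample than in its partner, all 8 factors were higher in all 3 pairs. The part of the endothelial and other markers in the results of the 8 factors was not tested.

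**Figure D4:**
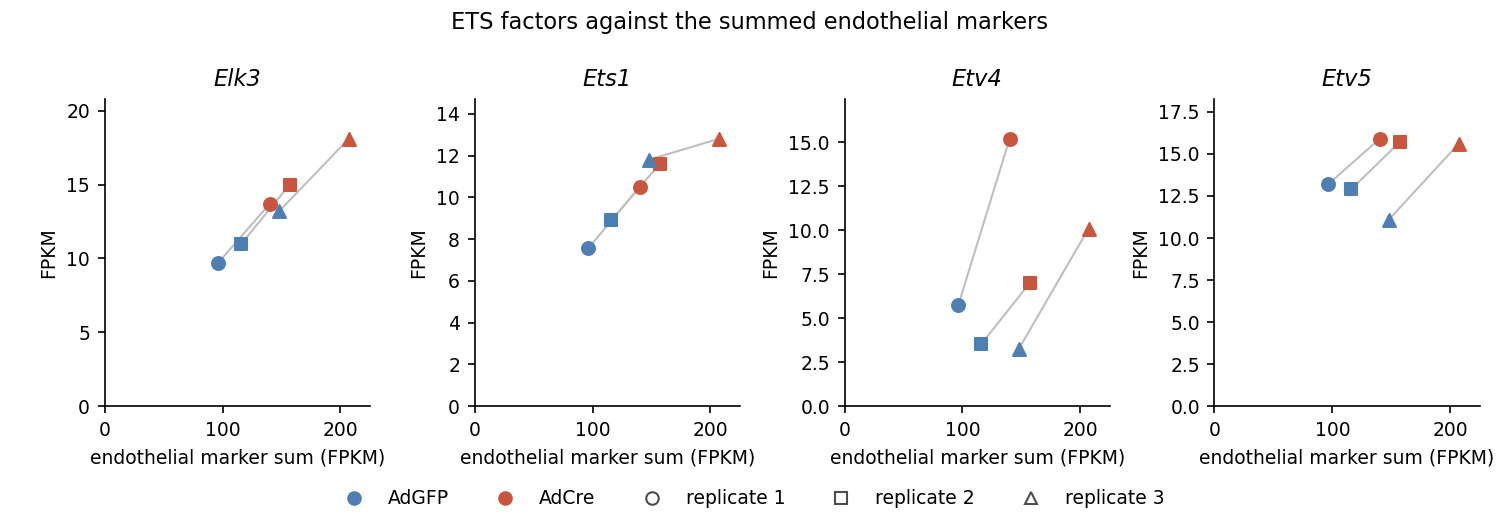
FPKM of Elk3, Ets1, Etv4 and Etv5 (vertical axes, from 0) against the summed FPKM of the 11 endothelial markers (horizontal axis) in the AdGFP (blue) and AdCre (red) samples, with lines joining samples of the same replicate number. For all 4 factors each AdCre point lies above its AdGFP partner, and Elk3 lies at 8.71 to 10.1% of the sum in all 6 samples.

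The other marker lists moved as follows. Of the cardiomyocyte markers described above, 0 passed without the block. Macrophage markers summed to 49.7, 207 and 273 FPKM in AdGFP and 88.2, 281 and 343 FPKM in AdCre, with 2 of the 7 tested rising with the block. Epicardial markers summed to 227 to 352 FPKM in AdGFP and 375 to 454 FPKM in AdCre, while 4 of the 7 were lower by sign and their median log2 difference of -0.38 became 0.09 without AdGFP sample 3 and -0.03 without AdCre sample 2. With the block Krt8 and Krt18 rose and Tbx18 fell. Of the 10 fibroblast markers 1 rose and 3 fell with the block, and of the 8 mural markers 0 passed.

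Genes with the pattern most like that of Etv4 over the 6 samples, by the root mean square difference of log2 values centred on their own means, were Hmga2 (0.129), Usp43 (0.131) and Padi3 (0.170), against 0.77 for the spread of Etv4 about its own mean. Hmga2, a chromatin architectural protein, went from a mean of 9.89 FPKM to 22.7 FPKM, and Padi3, a peptidylarginine deiminase, from 11.0 FPKM to 24.5 FPKM. Among the genes most like Elk3 were Ctsh (0.040) and Nek6 (0.051), against 0.29 for Elk3 about its own mean.

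Beyond the 8 factors, 11 of 18 other ETS family genes were expressed enough to test, and 0 of them passed in limma with or without the block. At an unadjusted p of 0.05 in limma, 0 passed without the block. By sign 7 were higher and 4 lower, and the sign of their median log2 difference of 0.09 was not stable, at -0.01 without AdCre sample 3 and 0.18 without AdCre sample 2 or under TPM. Erf, an ETS repressor that ERK exports from the nucleus, had a mean of 14.6 ± 1.97 FPKM in AdGFP and 15.5 ± 2.02 FPKM in AdCre (SD, n = 3 each). Fli1 and Spi1, factors of endothelial and myeloid cells, had log2 differences of 0.26 and 0.36 with overlap. Elf3, an epithelial ETS factor, had the largest difference of the 11, 1.30 with SE 0.56, from values of 0.548, 0.0889 and 0.201 FPKM in AdGFP and 1.08, 0.507 and 0.667 FPKM in AdCre, which overlap (limma adjusted p = 0.504).

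Among 13 regulators and partners of the 8 factors, 5 were higher and 8 lower by sign, with a median log2 difference of -0.02 (0.07 after rescaling to TPM and 0.02 without AdGFP sample 3). Of these, 0 passed without the block and Myocd alone fell with it (log2 difference -0.55, limma adjusted p = 0.417 without and 0.043 with the block), a cofactor of SRF in muscle. Cic, the repressor of the PEA3 genes, had a mean of 18.2 ± 1.69 FPKM in AdGFP and 18.9 ± 0.333 FPKM in AdCre. Mrtfa, another SRF cofactor, had a log2 difference of 0.29 (limma adjusted p = 0.53). Det1, which with Cop1 marks PEA3 proteins for degradation, had a log2 difference of -0.30 (limma adjusted p = 0.61). Without overlap, 4 of the 13 were lower (Atxn1l, Crebbp, Det1 and Myocd).

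Genes downstream of ERK were set beside the 8 factors. Of 19 ERK output genes, 0 passed without the block, 7 had an unadjusted p under 0.05 in limma, and 6 rose and 0 fell with the block (Ccnd1, Errfi1, Plaur, Fosl1, Dusp4 and Dusp5). By sign 13 were higher and 6 lower, and their median log2 difference was 0.25. Ccnd1 (cyclin D1) went from 36.6 ± 8.48 FPKM to 80.1 ± 9.36 FPKM, and Errfi1, a feedback inhibitor of the EGF receptor, from 23.4 ± 3.80 FPKM to 46.2 ± 12.5 FPKM (SD, n = 3 each), and both were also named by the study from these samples. Spred2 and Spred3, RAS feedback inhibitors, had log2 differences of 0.40 and 0.56 without overlap and did not pass with the block. Of the Sprouty feedback inhibitors, Spry1 and Spry2 had log2 differences of -0.25 and -0.37, lower in 3 of 3 pairs, and Spry4 had 0.11, higher in 3 of 3 pairs without overlap, and none of them passed. Of 9 SRF and ternary complex immediate-early genes tested, 0 passed without the block, 4 had an unadjusted p under 0.05 in limma, and 2 rose with the block, Egr2 (named by the study) and Nr4a1. Their median log2 difference was 0.50, 0.23 when genes below a mean of 1 FPKM were left out and 0.21 without AdGFP sample 1. Egr2 was measured at 1.55, 1.53 and 1.87 FPKM in AdGFP and 4.92, 3.28 and 3.14 FPKM in AdCre, and Nr4a1 had a log2 difference of 0.58. Fos, the classical Elk target, had a log2 difference of 0.09 with overlap.

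**Figure D5:**
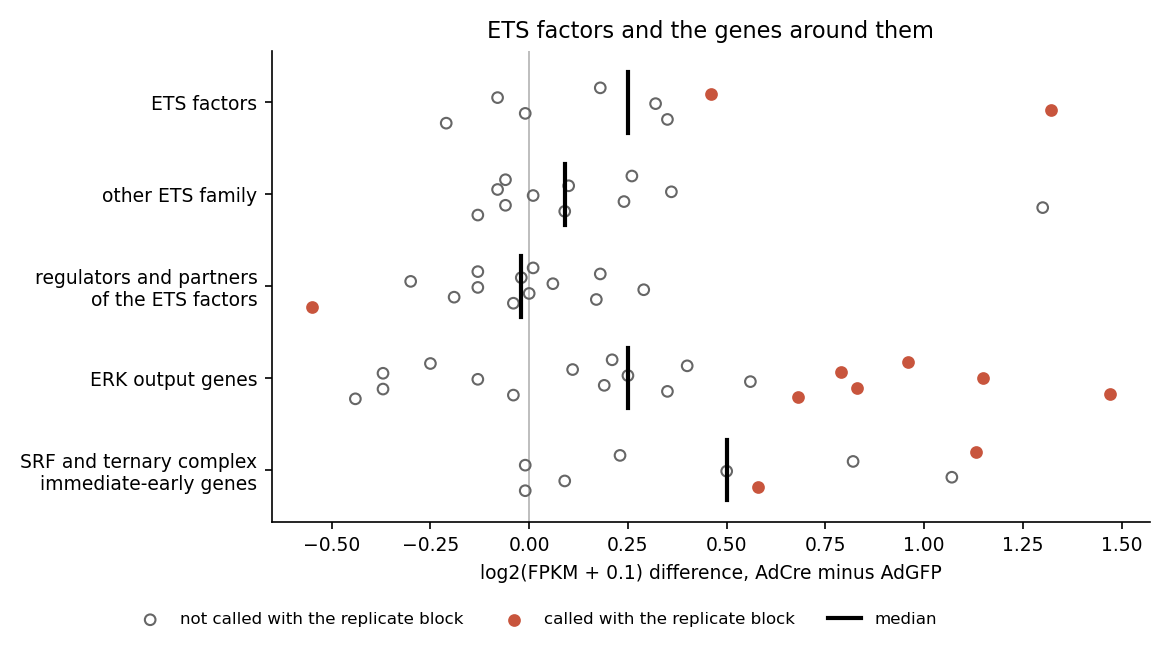
Log2 difference of AdCre minus AdGFP (horizontal axis, log2(FPKM + 0.1)) of each tested gene in the 8 ETS factors and in 4 other lists, with black bars at the medians and filled red points for genes called with the replicate block. Of the 8 factors Etv4 and Elk3 are filled, of the other ETS family genes 0, and of the ERK output genes 6.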

How the data were processed

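The deposited file held FPKM for 54532 genes, made by the authors with fastp, STAR 2.5 and HTSeq 0.6.1 on mm10 per the submitters' processing notes. The annotation, the use of strand and the test applied are not given in the sources used here. Of the genes, 54495 are in GENCODE M21 (GRCm38), from which symbols, loci and exon lengths were taken. FPKM times exon length gave whole reads in all samples for 97.22% of the genes above 0 (within 0.05 read or 0.0001 of the value). Promoter sequences were from RefSeq.

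Groups were taken from the labels. Values were tested as log2(FPKM + 0.1), so differences understate those of low genes, over the 13794 genes that averaged 0.5 FPKM or more, in limma 3.58.1 (R 4.3.3, eBayes with a trend), with Benjamini-Hochberg adjustment over all of them and a threshold of 0.05. Intervals are from the same fit. Single values had an exact permutation test. The script was tested on simulated data. Within a group, chi-square per degree of freedom between replicates was 35.78 to 113.7, above counting error. The labels do not say what a replicate number marks, and p-values measure only the spread between these samples. Deviations from the group means correlated by 0.568, 0.268 and 0.506 between same-numbered samples and by -0.497 to 0.0364 between others, so same-numbered samples were treated as pairs, on the values alone, and blocked results are printed where the call differs.

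The members and lists were chosen with earlier results of these data known. All members are named, at most 5 genes with the smallest p from each other list, and the 3 protein-coding genes most like Etv4 and any called member. Some genes that this rule takes are not reported here. Erf, Cic, Atxn1l, Crebbp, Plaur, Fosl1, Dusp4, Spry1, Spry2, Spry4, Fos, Cldn5, Vwf, the endothelial sum without Eng and the shares of marker sums were chosen after their values were seen. Alternatives were pseudocounts of 1 and 0.01, no filter or a mean of at least 1 FPKM, rescaling to TPM, median centring, quantile normalization, no trend, voom on the recovered reads, the block, and leaving out samples or pairs. Python 3.11.15 with numpy 2.4.6, pandas 2.3.3 and scipy 1.17.1 was used.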

Additional observations from a re-analysis of the deposited data

How the results depend on the processing

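Over 22 alternatives Etv4, Etv5, Ets1, Elk3 and Elk4 stayed higher and Ets2 lower in AdCre. The log2 difference ranged from 1.03 to 1.59 for Etv4, from 0.27 to 0.44 for Etv5 and from 0.35 to 0.58 for Elk3. It reached 0.18 for Ets1 without AdGFP sample 1 and 0.50 without AdGFP sample 3, -0.37 for Ets2 without AdCre sample 2 and -0.11 with the block and without pair 3, and 0.09 for Elk4 without AdGFP sample 2. Etv1 turned to 0.01 under TPM, also with the replicate block, and ranged from -0.27 to 0.05 with samples left out. Elk1 turned to 0.08 under TPM with or without the block, 0.00 with median centring with or without the block, 0.01 with quantile normalization and 0.05 with voom with or without the block, and ranged from -0.05 to 0.06 with single samples left out and to 0.11 in the blocked fit without pair 2. Of the 8 factors, 2 were called with the replicate block and with the block and median centring, 3 with the block and TPM (Etv5 added, adjusted p = 0.0419), 4 with voom and the block (Etv5 and Ets1 added, adjusted p = 0.0213 and 0.0279), and between 0 and 1 in the blocked fit without 1 pair, in limma throughout. Without the block 0 were called in any setting, and the largest limma adjusted p of Etv4 and Elk3 was 0.791 and 0.908, both without AdGFP sample 2.

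Over all genes, 1 was called without the block, 3 with a pseudocount of 1, 0 without a filter, 4 without a trend, 0 with voom, and 0 to 2 with single samples left out. With the replicate block 848 were called (364 higher and 484 lower), 875 with the block and TPM (538 higher and 337 lower), 778 with the block and median centring and 1739 with voom and the block. The blocked count was 772, 149 and 1 without pair 1, 2 and 3, whereas the number at an unadjusted p under 0.05 was 2914, 2622 and 2499, against 3414 with all pairs. TPM moved the median of all genes to 0.0866. The cause of these shifts was not tested. Depth limits Etv1 and Etv4 most, at a counting error of up to 5.94% and 6.32%, well under the spread between samples.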
